A study of Homo sapiens with 4 samples.

Results

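The genes described here belong to the solute carrier families that mainly carry amino acids, sugars and monocarboxylates. They were chosen by name, as the protein-coding genes of GENCODE version 29 whose symbol starts with SLC1A, SLC2A, SLC3A, SLC5A, SLC6A, SLC7A, SLC16A, SLC36A, SLC38A or SLC43A. The rule took 101 of the 58825 gene rows. Of these, 99 encode carriers or their subunits, while SLC2A4RG and SLC7A6OS only share a transporter's name. They were measured by 3' mRNA sequencing in LoVo, a line from a colon adenocarcinoma in which the receptor tyrosine kinase MET is constitutively active. The 2 MET+ libraries are labelled as GFP control with the genotype WT, and the 2 MET-KO libraries come from LoVo cells in which MET was cut with CRISPR/Cas9. All cells were grown in DMEM with fetal bovine serum. Per the methods, cells that received the Cas9 plasmid and the MET guide were selected with puromycin, single clones were picked, and knock-out clones were chosen by western blot. Whether the MET-KO libraries share a clone is not given in the sources used here.

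Amino acids, glucose and lactate do not cross membranes freely, and each enters or leaves the cell through carriers of the solute carrier (SLC) families. SLC7A light chains pair with the heavy chain 4F2hc, encoded by SLC3A2, and exchange an amino acid outside for another inside. SLC1A5 and the sodium-coupled SLC38A carriers load the cell with glutamine and other small neutral amino acids that feed such exchange. SLC2A proteins let sugars pass down their gradient, and SLC16A proteins move lactate and other monocarboxylates, several of them with a proton. Many amino acid carriers are known targets of ATF4, the transcription factor of the amino acid response.

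The libraries held 8429142 and 10286552 counts in MET+ and 10137583 and 10228991 in MET-KO cells. Levels are counts scaled to a common library total (CPM) after TMM scaling by edgeR, and the libraries counted the 3' ends of transcripts. MET itself, the targeted gene, had 2794 and 3272 counts in MET+ cells, and 861 and 965 were left in MET-KO cells (log2 fold change -1.96, standard error 0.09). By the quasi-likelihood test of edgeR, adjusted after Benjamini and Hochberg, the adjusted p was 1.49e-18. Here and below, a log2 fold change is MET-KO minus MET+, and a gene was called at an adjusted p under 0.05 over all 13801 genes tested. The groups differed widely: 54.1% of the tested genes were called, 27.2% of them higher and 26.9% lower in MET-KO cells, around a median log2 fold change of 0.01. Whole chromosomes also differed, with median log2 fold changes from -0.52 on chromosome 14 to 0.50 on chromosome 7. Counts on chromosome Y genes lay between 45 and 57 in MET+ and between 7200 and 7330 in MET-KO libraries. Of 12 markers of colorectal epithelium, 8 were called lower and 2 higher. Their summed level was 9688 and 9725 CPM in MET+ and 8307 and 7324 CPM in MET-KO libraries, mostly from KRT18 (mean 6010 against 4871 CPM). The median log2 fold change of the 11 tested was -0.88. CEACAM5 and GPA33 were at 0 in both MET-KO libraries, KRT20 in both MET+ libraries, and CDX1 in all 4. LGALS4 went from a mean of 10.85 to 0.0949 CPM and VIL1 from 5.57 to 0.285 CPM, while CDX2 rose from 64.9 to 134 CPM. The 6 fibroblast markers summed to between 1.64 and 4.23 CPM, with COL1A2 and DCN at 0, and the 6 blood and endothelium markers to between 0 and 0.724 CPM. Whether the libraries of both groups derive from the same line was not tested beyond these values, so a difference between lines, clonal differences and the loss of MET cannot be told apart, and the part of each in the results was not tested.

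The summed level of the 101 genes was 3295 and 3284 CPM in the MET+ libraries and 2315 and 2222 CPM in the MET-KO libraries, which do not overlap, and no test was run on the sum. In such bulk samples, less RNA in every cell and fewer cells with a high level cannot be told apart. Of the 101 genes, 70 had a count in at least 1 library, 31 were at 0 in all 4, and 50 passed the filter on low counts and were tested. Of these 50, 35 were called (70%, beside 54.1% of all genes), 14 higher (28%, beside 27.2%) and 21 lower (42%, beside 26.9%) in MET-KO cells. Without MET-KO replicate 1, 9 were called higher in place of 14. The median log2 fold change was -0.19. When a log2 fold change of 1 or more in size was also required, 18 of the 50 passed (36%, beside 24.3% of all genes), 9 higher (beside 14.5%) and 9 lower (beside 9.81%). The replicate values of the groups did not overlap for 38 of the 50 genes, where 75.6% of all tested genes did not overlap.

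Among the 10 genes with a mean of at least 100 CPM in either group, 7 were called lower (beside 26.9% of all genes), 2 higher (beside 27.2%) and 1 was not called. The shares among all genes of such a level were not computed. SLC7A11, SLC7A1 and SLC38A1 reached that level only in MET+ cells, and SLC5A3 and SLC7A8 only in MET-KO cells. The selection thus favoured genes that differ, which the shares of all genes do not allow for, so these counts are a description only. The difference between families was not tested. The amino acid families were SLC1A, SLC3A, SLC7A, SLC36A, SLC38A and SLC43A, without SLC7A6OS but with the purine base carrier SLC43A3. Of their 25 tested genes, 16 were called lower (beside 26.9% of all genes) and 5 higher (beside 27.2%). Their median log2 fold change was -0.85 (all genes 0.01). The other set was SLC2A, SLC5A and SLC16A, without SLC2A4RG, which mainly carry sugars, vitamins and monocarboxylates. Of its 19 tested genes, 4 were called lower and 7 higher, beside the same shares of all genes, with a median of -0.01. SLC6A, which also holds amino acid carriers, was counted in neither set. Of its 4 tested genes, 1 was called lower and 1 higher, beside the same shares, with a median of 0.07.

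**Figure D1:**
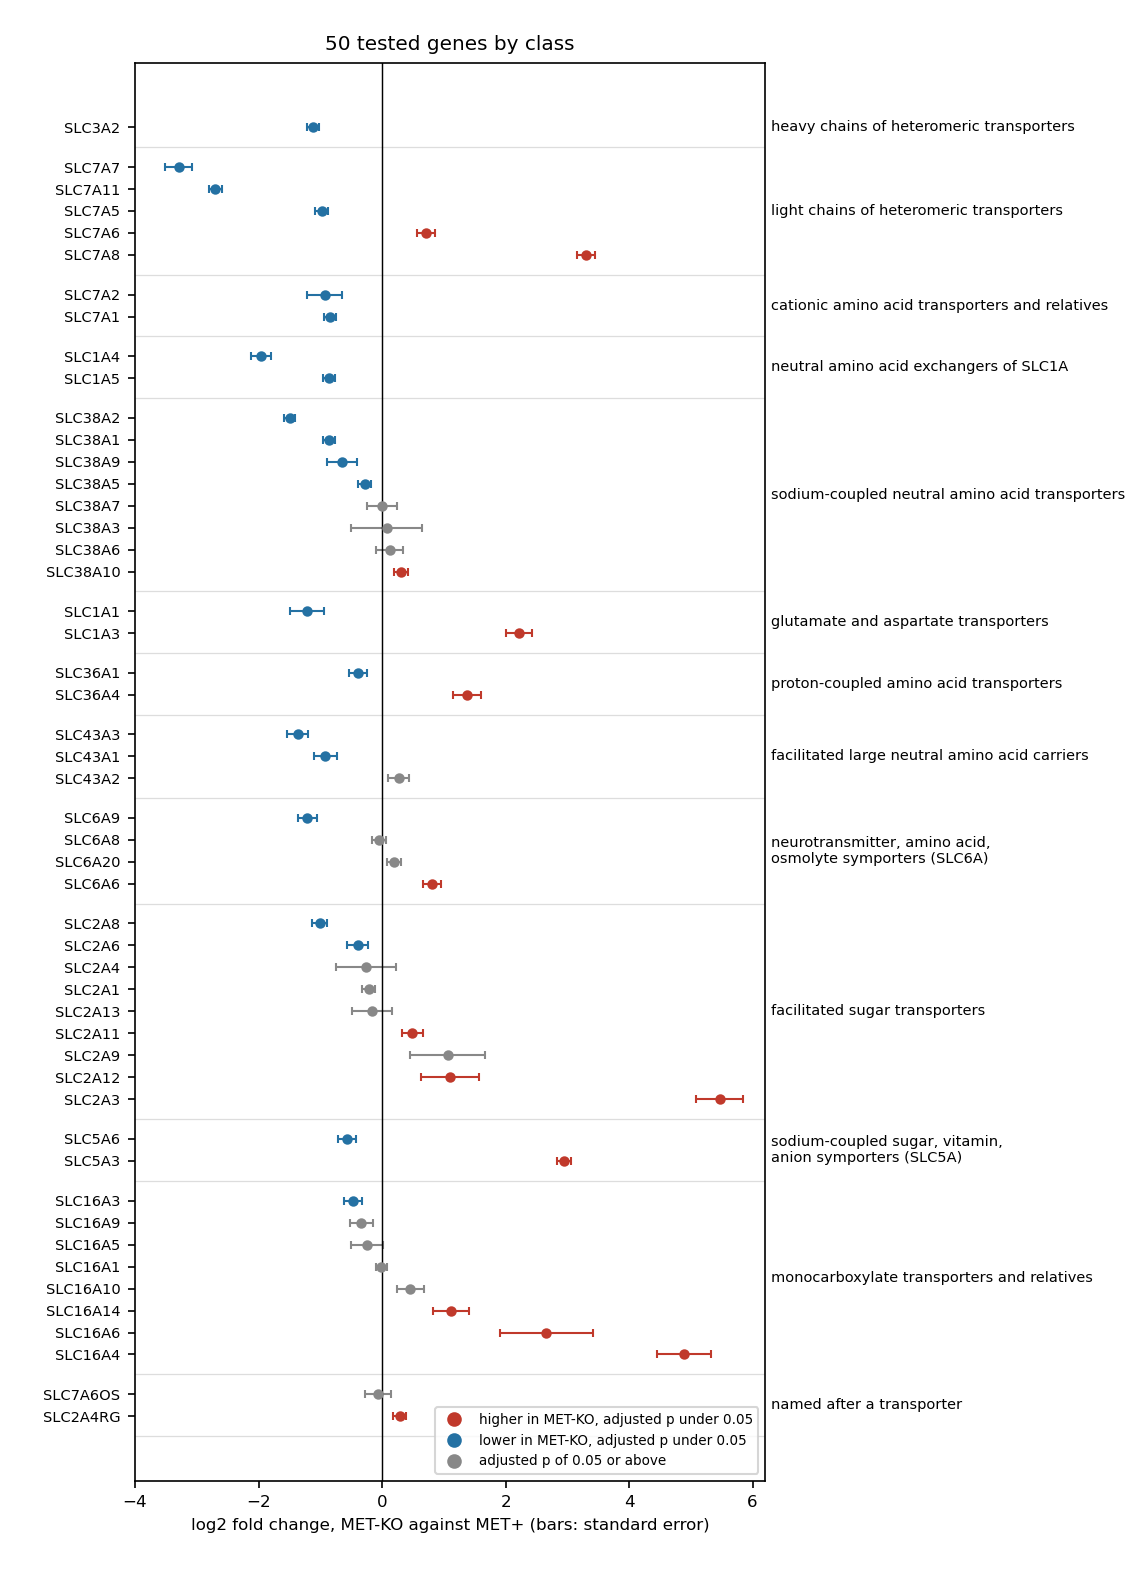
Log2 fold change of MET-KO against MET+ cells for the 50 tested genes, grouped by role, with bars for the standard error derived from the edgeR test. Red points were called higher (14), blue points lower (21) and grey points were not called (15), and the values run from -3.30 (SLC7A7) to 5.47 (SLC2A3).

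SLC7A11 and SLC3A2 form system xc-, which takes up cystine in exchange for glutamate, and both fell. SLC7A11 (ENSG00000151012, chromosome 4, 138164097 to 138242349 of GRCh38, minus strand) stood at 312 and 273 CPM in the MET+ libraries and at 45.5 and 44.5 CPM in the MET-KO libraries. Its mean went from 292 ± 27.9 CPM (SD, n = 2) to 45.0 ± 0.723 CPM (SD, n = 2). The log2 fold change was -2.70 (standard error 0.10, edgeR adjusted p = 2.07e-21). SLC3A2 (ENSG00000168003, chromosome 11, 62856102 to 62888875, plus strand), the heavy chain that carries most SLC7A light chains to the surface, stood at 370 and 352 CPM in MET+ and at 172 and 160 CPM in MET-KO libraries. Its log2 fold change was -1.12 (standard error 0.09, edgeR adjusted p = 2.13e-12), so that both MET-KO libraries lay below 50% of the MET+ values. The other heavy chain, SLC3A1, did not pass the filter on low counts.

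The light chains of the heteromeric carriers changed in composition. Of the 8 genes, 5 were tested and all 5 were called (beside 54.1% of all genes), 3 lower and 2 higher. SLC7A5 (ENSG00000103257, chromosome 16, 87830023 to 87869488, minus strand) encodes LAT1, which brings in leucine and other large neutral amino acids in exchange for glutamine. It had 263 and 311 CPM in MET+ and 160 and 132 CPM in MET-KO libraries, a log2 fold change of -0.98 (standard error 0.10, edgeR adjusted p = 5.95e-10). SLC7A7 (ENSG00000155465, chromosome 14, 22773222 to 22829820, minus strand) encodes y+LAT1, an exporter of cationic amino acids, and had 34.3 and 28.6 CPM in MET+ and 4.01 and 2.39 CPM in MET-KO libraries. The mean was 9.81 times lower in MET-KO cells (log2 fold change -3.30, standard error 0.22, edgeR adjusted p = 6.33e-15), the largest fall among the 50 tested genes.

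SLC7A8 moved the other way. It encodes LAT2, a broad exchanger of neutral amino acids, and lies on chromosome 14 (ENSG00000092068, 23125295 to 23183674, minus strand), 295.5 kb beyond SLC7A7. Its level was 10.1 and 10.8 CPM in the MET+ libraries and 117 and 89.6 CPM in the MET-KO libraries. The mean was 9.91 times higher in MET-KO cells (log2 fold change 3.30, standard error 0.14, edgeR adjusted p = 7.05e-20). Neighbouring light chain genes on a chromosome with a median log2 fold change of -0.52 thus changed in opposite directions. SLC7A6, which encodes y+LAT2, rose from 18.2 and 17.0 CPM to 27.1 and 30.4 CPM (log2 fold change 0.71, edgeR adjusted p = 0.000147).

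As shares of the summed light chain level, SLC7A11 went from 48.94% and 42.59% in the MET+ libraries to 12.83% and 14.88% in the MET-KO libraries. SLC7A8 went from 1.59% and 1.68% to 33.08% and 29.97%. SLC7A5 held 41.24% and 48.61% in MET+ and 45.19% and 43.99% in MET-KO libraries, with overlapping groups. The summed level itself was 638 and 640 CPM in MET+ and 355 and 299 CPM in MET-KO libraries. These shares compare 3' counts without division by length, which suits libraries that count transcript ends.

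Among the carriers of glutamine and small neutral amino acids, SLC38A2, SLC38A1, SLC1A5 and SLC1A4 fell. SLC38A2 (ENSG00000134294, chromosome 12, 46358189 to 46372867, minus strand) encodes SNAT2, the carrier that cells raise when amino acids run short, and was the most abundant of the 101 genes in MET+ cells. It stood at 565 and 578 CPM in MET+ and at 209 and 196 CPM in MET-KO libraries, or 571 ± 8.78 against 203 ± 8.86 CPM (SD, n = 2 each). The SLC38A2 log2 fold change came to -1.50 (standard error 0.09, edgeR adjusted p = 1.05e-15). SLC38A1, which encodes SNAT1 and lies 88.2 kb away on the same chromosome (ENSG00000111371, 46183063 to 46270017, minus strand), had 175 and 161 CPM in MET+ and 100.04 and 84.6 CPM in MET-KO libraries. It fell by 0.86 on the log2 scale (standard error 0.10, edgeR adjusted p = 5.5e-09). The median of chromosome 12 was -0.32 on the log2 scale, and relative to it the values were -1.18 for SLC38A2 and -0.55 for SLC38A1.

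SLC1A5 (ENSG00000105281, chromosome 19, 46774883 to 46788594, minus strand) encodes ASCT2, an exchanger that delivers glutamine to many tumour cells. It had 248 and 268 CPM in MET+ and 156 and 129 CPM in MET-KO libraries (log2 fold change -0.86, standard error 0.10, edgeR adjusted p = 4.11e-09). SLC1A4 (ENSG00000115902, chromosome 2, 64988477 to 65023865, plus strand), the related exchanger ASCT1 of serine, alanine and cysteine, fell further. Its values were 35.0 and 43.2 CPM in MET+ and 9.79 and 10.4 CPM in MET-KO libraries, a mean 3.88 times lower (log2 fold change -1.96, standard error 0.16, edgeR adjusted p = 1.6e-12).

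Summed over SLC38A2, SLC1A5, SLC38A1 and SLC38A5, the level went from 1089 and 1103 CPM to 544 and 492 CPM. SLC38A2 made up 51.9% and 52.37% of this sum in MET+ and 38.42% and 39.93% in MET-KO libraries. SLC38A5, which encodes SNAT5, fell less, from 101 and 95.8 CPM to 78.9 and 82.5 CPM (log2 fold change -0.28, edgeR adjusted p = 0.016). The call on SLC38A5 was lost without MET+ replicate 1 (edgeR adjusted p = 0.114) and without MET-KO replicate 1 (edgeR adjusted p = 0.0797).

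Within SLC38A, 8 of the 11 genes were tested, 4 were called lower (beside 26.9% of all genes) and 1 higher (beside 27.2%). The median log2 fold change of the family was -0.15. SLC38A9, a lysosomal arginine sensor, had a log2 fold change of -0.65 (edgeR adjusted p = 0.0224), and SLC38A10 rose by 0.31 on the log2 scale (edgeR adjusted p = 0.0149), from 56.3 and 62.4 CPM to 74.5 and 72.5 CPM. SLC38A3, SLC38A6 and SLC38A7 were not called, with log2 fold changes of 0.07, 0.12 and -0.01. The family's 5 calls became 3 without MET+ replicate 1 and 2 without MET-KO replicate 1. The SLC38A9 call was lost without each replicate but MET+ replicate 1, with edgeR adjusted p from 0.0557 to 0.164, and with an offset for chromosome 5 (0.471). That of SLC38A10 was lost without MET+ replicate 1 (edgeR adjusted p = 0.145) and MET-KO replicate 1 (0.0688), and its antisense gene AC027601.4 was called higher (log2 fold change 1.61).

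Of the 5 cationic amino acid transporters and their relatives, 2 were tested and both were called lower (beside 26.9% of all genes), SLC7A2 less firmly. SLC7A1 (ENSG00000139514, chromosome 13, 29509410 to 29595688, minus strand) encodes CAT-1, the main arginine and lysine importer of most cells. It had 179 and 148 CPM in MET+ and 89.6 and 91.9 CPM in MET-KO libraries (log2 fold change -0.85, standard error 0.10, edgeR adjusted p = 1.03e-08). SLC7A2, which encodes CAT-2, was lower at a far smaller level, with 6.15 and 9.43 CPM in MET+ and 4.11 and 4.14 CPM in MET-KO libraries (log2 fold change -0.93, edgeR adjusted p = 0.00635). That call was lost without MET+ replicate 2, with an edgeR adjusted p of 0.161.

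**Figure D2:**
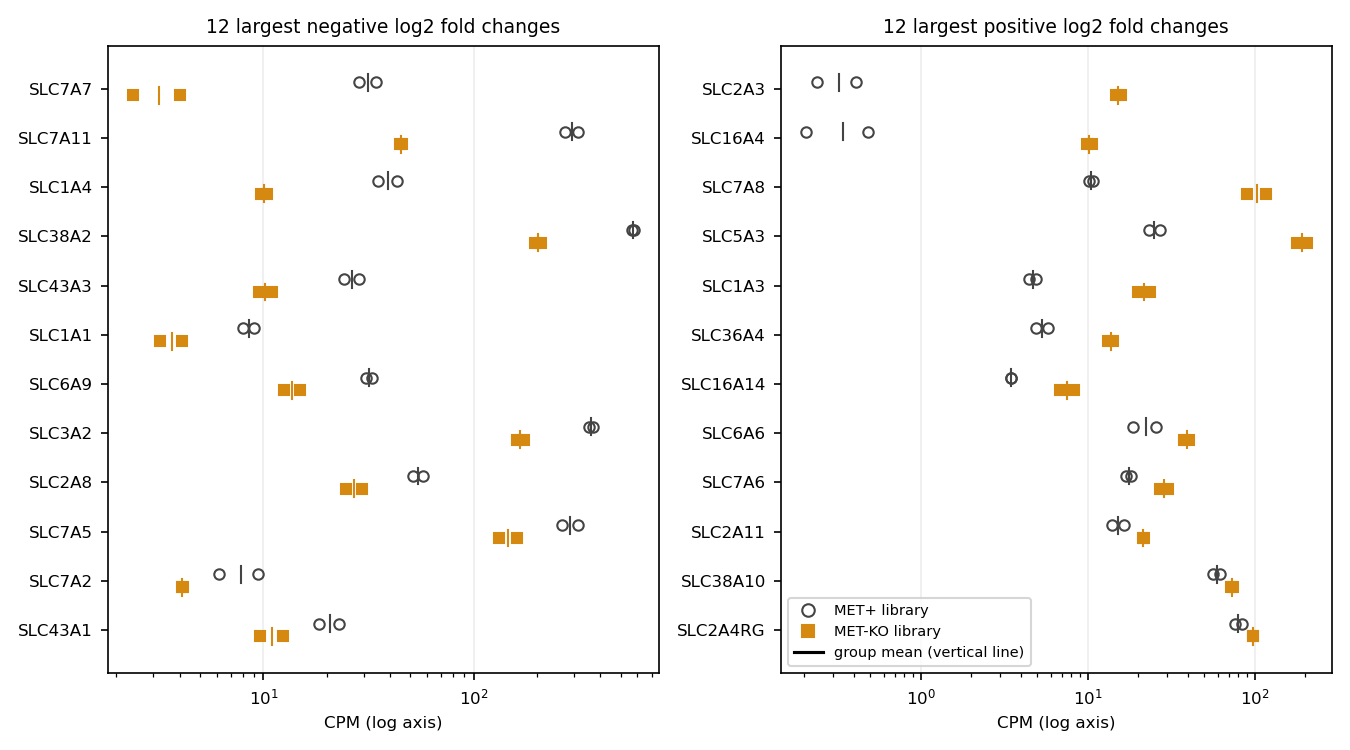
Level in each library, in CPM on a log axis, of the 12 genes with the largest fall (left) and the 12 with the largest rise (right), taken from called genes whose mean log2 CPM reached 2 and whose groups were apart. Open circles are MET+ libraries, orange squares MET-KO libraries and vertical lines the mean of 2, and the SLC7A11 points sit at 312 and 273 against 45.5 and 44.5 CPM.

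The promoters of the carriers were read to see which hold the letters of the C/EBP-ATF response element, a site that ATF4 is known to bind. RefSeq promoter windows (250 bases before to 50 after a start, build GRCh38.p14) matched 76 of the 101 genes, with 108 windows. TGATGNAA, read on both strands, occurred in 3.62% of all 35116 windows and in the windows of 4.46% of all 27305 genes. It occurred in 7 of the 76 matched genes, which were 5 of the 18 called lower, 1 of the 11 called higher, 0 of the 11 not called, and the untested SLC2A5. The matches of the 6 called genes are shown with up to 11 bases on each side, 5′ to 3′ on the gene's strand, the motif in capitals to show which letters these carriers hold near a start. Where the capitals end in CATCA, the motif lies on the other strand.
SLC1A4: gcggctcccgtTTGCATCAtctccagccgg
SLC3A2: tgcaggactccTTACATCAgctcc
SLC38A1: tcagacccgaaTGATGAAAagggatcagct
SLC7A1: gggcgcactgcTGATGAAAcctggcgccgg
SLC1A5: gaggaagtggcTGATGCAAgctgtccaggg
SLC1A3: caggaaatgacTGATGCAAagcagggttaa
The SLC1A4 stretch lies at chr2:64989381-64989410 (plus strand), its motif starting 7 bases before the RefSeq start, in an intron of GENCODE version 29. That of SLC3A2 lies at chr11:62881725-62881748 (plus strand), its motif 37 bases past the start in a non-coding part of an exon. The SLC38A1 stretch is chr12:46266502-46266531 (minus strand), in an intron, with the motif 4 bases before the start. SLC7A1 has it at chr13:29595663-29595692 (minus strand), 7 bases past the start in a non-coding part of an exon. The SLC1A5 stretch, chr19:46784893-46784922 (minus strand), belongs to a start inside the gene, with the motif 97 bases before it, in a non-coding part of an exon. SLC1A3, which rose, has it at chr5:36596357-36596386 (plus strand), 220 bases before the start and outside the gene. SLC1A5 and SLC1A3 hold the same 8 letters and changed in opposite directions. A match of letters is no sign of binding, and the window of SLC38A2 did not hold these letters. SLC7A11 was not among the 76 genes with a window.

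Other motifs also occurred in each group of calls. TGACNNNGC, the core of the antioxidant response element, occurred in 9 of the 76 genes (16.1% of all genes). These were 5 of the 18 called lower, as many as for TGATGNAA, 2 of the 11 called higher and 1 of the 11 not called. ACGTG, the core of the hypoxia response element, occurred in 26 (24.9% of all genes), namely 9 of the 18 called lower, 4 of the 11 called higher and 5 of the 11 not called. GGAATG, the TEAD motif, occurred in 13 (16.7% of all genes), with 2 of the 18 called lower, 3 of the 11 higher and 2 of the 11 not called. All were read on both strands, and the remaining genes with a match were not tested for expression.

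The carriers of glutamate and aspartate split. SLC1A3 (ENSG00000079215, chromosome 5, 36606355 to 36688334, plus strand) encodes EAAT1, a high-affinity glutamate and aspartate importer. It rose from 4.46 and 4.92 CPM in MET+ to 20.2 and 23.6 CPM in MET-KO libraries (log2 fold change 2.22, standard error 0.21, edgeR adjusted p = 5.68e-11), on a chromosome with a median of -0.43. SLC1A1, which encodes EAAT3, fell from 9.05 and 7.99 CPM to 4.11 and 3.22 CPM (log2 fold change -1.21, standard error 0.28, edgeR adjusted p = 0.000407). SLC1A2 was not tested, with 1 and 2 counts in MET+ and 4 and 5 in MET-KO libraries.

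In SLC43A, the family of facilitated carriers of large neutral amino acids, 2 of 3 genes were called lower, beside 26.9% of all genes. SLC43A3, known as a purine base carrier, fell from 28.6 and 24.3 CPM to 9.49 and 10.9 CPM (log2 fold change -1.37, standard error 0.17, edgeR adjusted p = 3.15e-08). SLC43A1, which encodes LAT3 and lies 57.0 kb away on chromosome 11, fell from 18.3 and 23.0 CPM to 12.3 and 9.65 CPM (log2 fold change -0.92, standard error 0.18, edgeR adjusted p = 7.84e-05). SLC43A2 was not called (log2 fold change 0.27, edgeR adjusted p = 0.175).

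In the SLC36A family of amino acid carriers, 2 of the 4 genes were tested. Of these, 1 was called higher (beside 27.2% of all genes) and 1, less firmly, lower (beside 26.9%). SLC36A4 rose from 5.79 and 4.92 CPM to 14.3 and 13.3 CPM (log2 fold change 1.37, standard error 0.22, edgeR adjusted p = 3.78e-06). SLC36A1, the lysosomal and intestinal carrier PAT1, had a log2 fold change of -0.39 (edgeR adjusted p = 0.026). Relative to the median of chromosome 5 that value became 0.04 with an edgeR adjusted p of 0.847. The SLC36A1 call was also lost without MET+ replicate 1 (0.101), MET-KO replicate 1 (0.072) or MET-KO replicate 2 (0.125), each value an edgeR adjusted p.

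Of the 19 SLC6A genes, the sodium- and chloride-coupled carriers of neurotransmitters, amino acids and osmolytes, 11 had a count and 4 were tested. SLC6A9, the glycine carrier GlyT1, fell from 32.9 and 30.6 CPM to 12.5 and 14.9 CPM (log2 fold change -1.21, standard error 0.15, edgeR adjusted p = 4.28e-08). SLC6A6, the taurine carrier, rose from 18.7 and 25.8 CPM to 37.8 and 40.4 CPM (log2 fold change 0.80, standard error 0.14, edgeR adjusted p = 1.38e-05). GRIP2, antisense to SLC6A6, was at 0 in both MET+ libraries and at a mean of 2.02 CPM in MET-KO. The creatine carrier SLC6A8 (log2 fold change -0.05) and the proline carrier SLC6A20 (0.19) were not called.

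Among the glucose transporters, GLUT1 was not called and GLUT3 rose from a trace level. SLC2A3 (ENSG00000059804, chromosome 12, 7919230 to 7936275, minus strand) encodes GLUT3, a high-affinity glucose carrier known from neurons and from many tumours. It had 2 and 4 counts in MET+ libraries, against 161 and 160 in MET-KO libraries, 0.241 and 0.410 against 15.8 and 14.7 CPM. The ratio of the means was 46.8 (95% counting interval 20.8 to 126), and the log2 fold change of 5.47 (standard error 0.38, edgeR adjusted p = 3.68e-14) was the largest rise among the 50 genes. SLC2A14, a close copy of SLC2A3, was at 0 in all libraries, and reads common to both genes could have been lost or split in the counting.

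SLC2A1 (ENSG00000117394, chromosome 1, 42925375 to 42959176, minus strand) encodes GLUT1, the widespread basal glucose carrier. It was not called, with 61.5 and 57.3 CPM in MET+ and 54.1 and 47.9 CPM in MET-KO libraries (log2 fold change -0.22, edgeR adjusted p = 0.0972), although the groups did not overlap, and an offset for chromosome 1 gave a call (log2 fold change -0.28, edgeR adjusted p = 0.0357). SLC2A8, an intracellular hexose carrier, fell from 51.5 and 57.2 CPM to 29.3 and 24.8 CPM (log2 fold change -1.01, standard error 0.12, edgeR adjusted p = 2.1e-08). Of the summed facilitated sugar carriers, 154 and 158 CPM in MET+ and 143 and 134 CPM in MET-KO libraries, SLC2A1 made up between 35.81% and 39.87% in every library. The share of SLC2A3 went from 0.16% and 0.26% to 10.99% and 11%.

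The remaining sugar carriers had smaller or less certain differences. SLC2A11 (14.0 and 16.6 against 21.7 and 21.4 CPM, log2 fold change 0.49, edgeR adjusted p = 0.0121) and SLC2A12 (log2 fold change 1.11, edgeR adjusted p = 0.0462) were called higher, and SLC2A6 lower (-0.39, edgeR adjusted p = 0.0491). SLC2A4, SLC2A9 and SLC2A13 were not called. SLC2A2, SLC2A5, SLC2A7, SLC2A10 and SLC2A14 were at 0 in every library, which includes the fructose carrier GLUT5 (SLC2A5) and GLUT2 (SLC2A2). The 5 calls among the sugar carriers became 2 without MET-KO replicate 1 and 3 when any of the other libraries was left out alone. SLC2A6 lost its call without each of the 4 libraries in turn, SLC2A12 without each except MET+ replicate 1, and SLC2A11 without replicate 1 of either group.

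Among the SLC5A symporters, which couple their substrate to sodium, SLC5A3 rose. It encodes SMIT1, the myo-inositol carrier (ENSG00000198743, chromosome 21, 34073570 to 34106262, plus strand). It stood at 27.0 and 23.3 CPM in MET+ and at 179 and 206 CPM in MET-KO libraries, 7.66 times higher in the mean (log2 fold change 2.94, standard error 0.11, edgeR adjusted p = 3.53e-21). SLC5A3 shares exons on the same strand with MRPS6, a mitochondrial ribosomal protein gene, which also rose, from 78.8 to 322 CPM (log2 fold change 2.03, edgeR adjusted p = 7.55e-19), and how reads common to both were assigned is not given in the sources used here. SLC5A6, the biotin and pantothenate carrier, fell by 0.56 on the log2 scale (edgeR adjusted p = 0.00167), a call lost without MET+ replicate 2 (edgeR adjusted p = 0.0567). SLC5A1, the intestinal glucose carrier SGLT1, had 4 and 0 counts in MET+ and 0 in both MET-KO libraries.

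The summed level of the monocarboxylate carriers was 338 and 334 CPM in MET+ and 338 CPM in both MET-KO libraries, most of it from a single gene. SLC16A1 (ENSG00000155380, chromosome 1, 112911847 to 112957013, minus strand) encodes MCT1, a lactate and pyruvate carrier. It stood at 274 and 262 CPM in MET+ and at 262 and 269 CPM in MET-KO libraries, between 77.52% and 81.24% of the family's sum, and was not called (log2 fold change -0.01, standard error 0.09, edgeR adjusted p = 0.912). SLC16A3, which encodes the lactate exporter MCT4, had 26.3 and 31.7 CPM in MET+ and 22.8 and 19.3 CPM in MET-KO libraries (log2 fold change -0.47, edgeR adjusted p = 0.00865), and lost its call without replicate 2 of either group.

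Minor members of the family rose from very low levels. SLC16A4 (ENSG00000168679, chromosome 1, 110362848 to 110391082, minus strand), whose substrate is poorly known, had 4 and 2 counts in MET+ libraries, against 101 and 115 in MET-KO libraries. The ratio of the means was 29.8 (95% counting interval 13.9 to 84.9; log2 fold change 4.89, standard error 0.44, edgeR adjusted p = 1.69e-11). Its antisense gene LAMTOR5-AS1 rose as well, from 1.70 to 7.80 CPM, and the strand setting of the counting is not given in the sources used here. SLC16A14 rose from 3.50 and 3.48 CPM to 8.32 and 6.80 CPM (log2 fold change 1.11, edgeR adjusted p = 0.00158). SLC16A6 had 3 and 1 counts in MET+ and 20 and 11 in MET-KO libraries (edgeR adjusted p = 0.00304, and 0.173 without MET-KO replicate 1 or 0.0726 without MET+ replicate 2), with the antisense gene ARSG higher too. The family's 4 calls became 2 without MET+ replicate 2. SLC16A5, SLC16A9 and SLC16A10 were not called, with log2 fold changes of -0.24, -0.33 and 0.46, although SLC16A9 was called lower without MET+ replicate 1 (-0.57, edgeR adjusted p = 0.00852).

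Of the pair named after a transporter, SLC2A4RG, a zinc finger protein gene, had 83.6 and 76.5 CPM in MET+ and 97.6 and 97.3 CPM in MET-KO libraries (log2 fold change 0.28, edgeR adjusted p = 0.0167). The call was lost without MET+ replicate 2 (edgeR adjusted p = 0.202) and without MET-KO replicate 1 (edgeR adjusted p = 0.0521). SLC7A6OS, which overlaps SLC7A6 on the opposite strand, was not called (log2 fold change -0.06).

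The 20 genes with counts that did not pass the filter were all low. SLC6A16 was at 0 in the MET+ libraries, and 12 and 9 counts fell on it in the MET-KO libraries, at least 2.99-fold higher against a floor of 3 counts. SLC7A9, a light chain of the renal and intestinal cystine carrier, was at 0 in MET+ and at 5 and 6 counts in MET-KO libraries, at least 1.56-fold higher. SLC16A13 had 6 and 12 counts in MET+ and 7 and 10 in MET-KO libraries. A gene at 0 allowed up to 3 counts, between 0.276 and 0.362 CPM by library, so that the 31 genes at 0 in all libraries were not detectable at this depth. Besides the sugar carriers named above, these included the neuronal carriers SLC1A6, SLC6A2 and SLC6A5 and the intestinal amino acid carrier SLC6A14.

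The genes around the carriers were followed in lists that were not part of the naming rule. Of 24 partners and regulators of transporters, 20 were tested. Of these, 8 were called higher and 9 called lower, around a median log2 fold change of -0.19 (all genes: 54.1% called, median 0.01). TRIB3, a pseudokinase induced by ATF4, fell from 329 and 302 CPM to 22.5 and 22.3 CPM (log2 fold change -3.81, edgeR adjusted p = 4.27e-25). DDIT3, the stress factor CHOP, fell by 1.26 on the log2 scale, and MLXIP and MLXIPL, glucose-sensing transcription factors, fell by 1.32 and 1.05. ARRDC4, an arrestin that lowers glucose carriers at the surface, rose from 1.33 and 1.23 CPM to 10.1 and 12.7 CPM (log2 fold change 3.15, edgeR adjusted p = 4.2e-10). EMB, an ancillary chain of monocarboxylate carriers, rose by 1.59, and the ubiquitin ligases NEDD4L and NEDD4 by 1.23 and 0.98. Named here for their role, after the values were seen, ATF4 went from 1258 and 1174 CPM to 616 and 588 CPM (log2 fold change -1.01, edgeR adjusted p = 3.03e-11), and BSG, the chain that carries MCT1 to the surface, from 125 and 179 CPM to 235 and 220 CPM (log2 fold change 0.58, edgeR adjusted p = 4.59e-05). NPTN, also an ancillary chain of monocarboxylate carriers, moved the other way from EMB and BSG. It fell from 129 and 127 CPM to 67.7 and 69.3 CPM (log2 fold change -0.90, edgeR adjusted p = 1.51e-09), and was likewise named after its value was seen.

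Of 46 enzymes that make or use the carried substrates, 40 were tested and 28 called, 23 of them lower (26.9% of all genes were) and 5 higher, with a median log2 fold change of -0.61. CHAC1, which breaks down glutathione and is a known ATF4 target, fell from 213 and 211 CPM to 25.5 and 24.2 CPM (log2 fold change -3.09, edgeR adjusted p = 1.14e-22). ASNS, asparagine synthetase, had 9 and 14 counts in MET+ and 0 and 2 in MET-KO libraries. HKDC1, a hexokinase relative, had 40 and 66 counts in MET+ and 0 in both MET-KO libraries, at least 20.4-fold lower. GAMT, the last enzyme of creatine synthesis, was at 0 in both MET+ libraries and at 157 and 145 counts in MET-KO libraries, at least 42.9-fold higher, and NOS2, which makes nitric oxide from arginine, went from 0 to 77 and 100 counts, at least 25.0-fold higher. GSS and BCAT1, of glutathione synthesis and branched-chain amino acid breakdown, rose by 0.64 and 0.53 on the log2 scale. With the enzymes at 0 in a group set to their bound, the median stayed at -0.61. Chosen after their values were seen, PHGDH of serine synthesis had a log2 fold change of -1.41 and CTH of cysteine synthesis one of -2.81, while LDHA, the enzyme that makes the lactate carried by MCT1, was not called (-0.08).

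**Figure D3:**
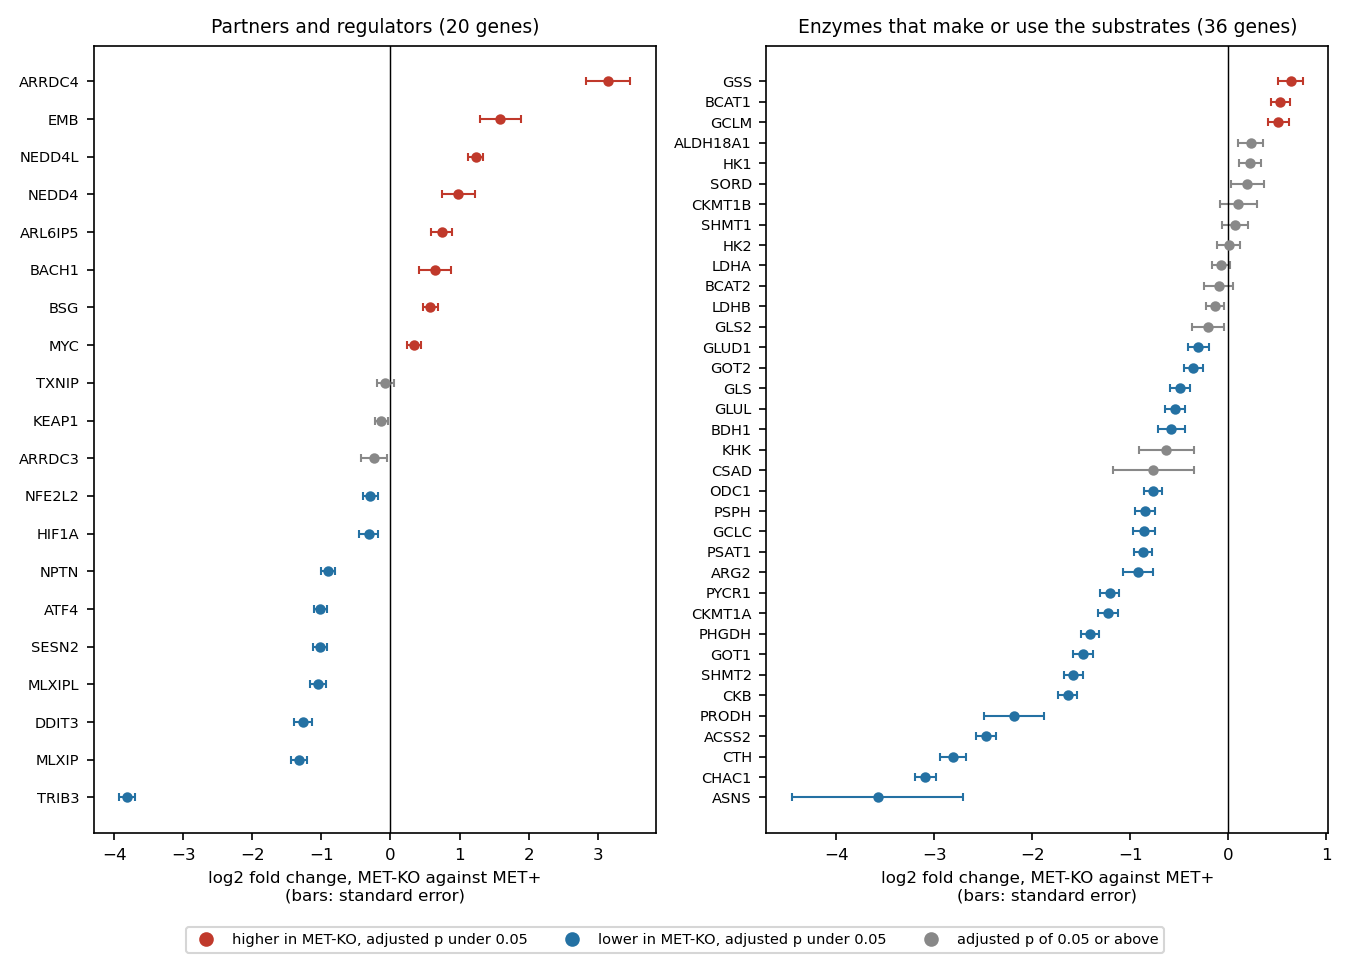
Log2 fold change of MET-KO against MET+ cells, with bars for the standard error, for the partners and regulators of transporters and the enzymes of the carried substrates that had counts in both groups. The values run from -3.81 (TRIB3) to 3.15 (ARRDC4), and enzymes at 0 in a group are left out.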

How the data were processed

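RNA of 2 MET+ and 2 MET-KO LoVo samples was sequenced with a 3' kit (QuantSeq FWD). The authors deposited whole, unnormalized counts per Ensembl gene (58825 rows) and 99 spike-in rows, all at 0. The submitters' processing notes name bcl2fastq, cutadapt 1.16, FastQC 0.11.7, MultiQC 1.5, STAR 2.5.4a, featureCounts 1.6.2, DESeq2 1.18.1 and GRCh38. The annotation release and strand setting are not given in the sources used here. Symbols and positions came from GENCODE version 29 (58552 IDs found).

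Counts were tested in R 4.3.3 with edgeR 4.0.16 (filterByExpr by group, TMM, quasi-likelihood test, condition as the only term, Benjamini-Hochberg adjustment over 13801 genes, threshold 0.05), after the fit was tested on simulated data. The standard error is that of the log2 fold change, derived as its size divided by the square root of the F statistic of the quasi-likelihood test. The replicates are labelled as biological. The members and lists were chosen with earlier results of these data known. Named with full values were called members whose mean log2 CPM reached 2 and whose groups were apart, 12 in each direction by log2 fold change, the 8 most abundant members, MET, and from each list the 4 largest changes in each direction. Genes at 0 in a group were given a bound from 3 counts per library. Counting intervals (95%) cover counting error only. Within-group correlations of log2(CPM + 1) were 0.991 and 0.992. An exact permutation test of 2 against 2 libraries cannot give a p below 0.333, so none was used. Alternatives were DESeq2 size factors, library totals, the Wald test of DESeq2 1.42.0, testing without a filter, a minimum of 10 counts per library, a replicate block, an offset by chromosome median, a log2 fold change of 1 or more in size, and leaving out each replicate. Figures were drawn with matplotlib 3.10.9. Some items are not reported here.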

Additional observations from a re-analysis of the deposited data

How the results depend on the processing

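The 35 calls among the members (14 higher, 21 lower) became 18 (9 higher, 9 lower) when a log2 fold change of 1 or more in size was required, which also left 9 of 17 calls in the partner list and 15 of 28 in the enzyme list. Leaving out 1 replicate gave 26 to 32 calls, 9 to 13 higher and 16 to 19 lower, with the other sample of that group assumed to vary like the other group. With 1 replicate left out, a smaller share of all genes was called too. DESeq2 size factors gave 35 of 50 (54.2% of all genes called). Library totals gave 33 of 50 (53.4%), 16 higher and 17 lower, with the median of all genes at 0.11. A minimum of 10 counts per library gave 31 of 45 (52.5%), and SLC2A3 and SLC16A4 could not be tested. More genes entered without a filter, with 35 of 70 called (32.6%), and in DESeq2's Wald test, with 25 of 70 (23.4%). Of the 35, 23 kept their call and direction in every fit they entered, and 12 lost the call in at least 1. An offset by chromosome median gave 33 calls, beside 51.7% of all genes, and turned SLC36A1 from -0.39 to 0.039 (edgeR adjusted p = 0.847). Same-numbered replicates did not deviate together over the genes (correlation -0.05), which cannot show whether they were prepared together. A replicate block gave 33 calls (13 higher, 20 lower), beside 51.1% of all genes, with SLC2A12 and SLC2A6 lost. The causes were not tested. Depth limits genes with few counts.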
